A study of Mus musculus with 13 samples.

Results

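Ptn encodes the secreted growth factor pleiotrophin, and Mt4 is a metallothionein gene. Within the tumor epithelium with Wnt target transcripts, a set of cells carried transcripts of Ptn, of Mt4 or of both. These Ptn and Mt4 expressing cells were 2877 of 7243 gated tumor epithelial cells (39.7%) and of 93871 tumor barcodes kept (3.06%), in a series of 118892 kept barcodes. A barcode was kept when it had at least 500 unique molecular identifiers (UMIs, 1 per captured transcript), at least 200 genes and under 25% mitochondrial UMIs. A kept barcode was gated when it had at least 10 UMIs of Epcam, Krt8 and Krt18 together, no Ptprc UMI, at least 3 UMIs of Axin2, Nkd1, Notum, Wif1 and Prox1 together, fewer than 4 of Mki67 and Top2a together and fewer than 10 of Lyz1. A gated tumor cell was a member when it had at least 5 UMIs of Ptn and Mt4 together, and the 4366 others are called the other gated cells. The members were thus selected on measured UMIs, so the levels of the genes in the rule and of the markers given for these cells (Ptn, Mt4, Mt3, Nkd1, Wif1 and Spock2) are descriptions and were not tested.

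The cells came from a study of how dietary folate and its cofactors bear on p16 epimutation and intestinal tumors. Single-cell RNA sequencing, which counted the 3′ ends of transcripts, covered 10 colon tumors and 3 samples of adjacent mucosa from 3 mice. All mice were C57BL/6J of the genotype ApcMin/+; p16cis/cis, that is, with a mutant Apc allele and the engineered p16 epimutation, and all received the supplemented diet, so neither genotype nor diet was compared here. Mouse A (24 weeks) gave tumors 5 to 8 and mucosa 2, mouse B (23 weeks) gave tumors 9 and 10 and mucosa 3, and mouse C (20 weeks) gave tumors 1 to 4 and mucosa 1. Tumors of 1 mouse are not independent animals, so p-values over tumors measure the spread between tumors. Mucosa was dissociated with EDTA and TrypLE and tumors with a tumor dissociation kit, so tissue and protocol cannot be told apart.

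The tumor libraries held 57221300 to 93157039 UMIs and the mucosa libraries 84883382 to 116133079. Y-linked transcripts were present and Xist was nearly absent in all 13 libraries, against the sex given in the labels for 7 of them, and sex was not used. The labels also gave both sexes within mouse A and within mouse C. The mouse was taken from the animal code of the same labels and was not checked otherwise. Of the kept barcodes, 1674 occurred in more than 1 library, among them those of 88 members. Members held a median of 19430 UMIs, 4253 genes and 5.21% mitochondrial UMIs per cell, against 9884 UMIs, 2964 genes and 9.35% in the other gated cells. A minimum of 5 UMIs is reached more easily in a deeper cell, so the comparison of members with the other gated cells, and that of the members among themselves, were repeated on cells matched for total UMIs.

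Apc restrains beta-catenin, and its loss in intestinal epithelium switches on Wnt target genes. Several targets, such as Axin2, Nkd1, Notum and Wif1, encode inhibitors that feed back on the pathway. Pleiotrophin binds glycosaminoglycans and signals through receptors such as the phosphatase Ptprz1. Metallothioneins are small cysteine-rich proteins that bind zinc and copper: Mt1 and Mt2 are widely expressed and induced by metals, whereas Mt3 is best known from brain and Mt4 from stratified squamous epithelium.

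Mt4, Mt3, Mt2 and Mt1 lie side by side on the plus strand within 43.1 kb (chr8:94137197-94180327, GENCODE vM21, GRCm38), and Ptn lies at chr6:36714929-36810220 on the minus strand. Their promoters are shown because Ptn and Mt4 define the cells, and Mt3, Mt2 and Mt1 lie next to Mt4 and recur below. The windows are RefSeq sequence of GRCm38.p6 from 250 bases before to 50 bases after the RefSeq gene start, written 5′ to 3′ on the strand of the gene. They span chr8:94136954-94137253 for Mt4, chr8:94152357-94152656 for Mt3, chr8:94172368-94172667 for Mt2, chr8:94178839-94179138 for Mt1 and chr6:36810130-36810429 for Ptn. That start is the GENCODE one for Mt3 and lies 7 bases inside the GENCODE gene for Mt4 and Mt1, 41 inside it for Ptn and 46 outside it for Mt2. Capitals mark the core of the metal response element (TGCACNC or TGCGCNC, either strand).
Mt4: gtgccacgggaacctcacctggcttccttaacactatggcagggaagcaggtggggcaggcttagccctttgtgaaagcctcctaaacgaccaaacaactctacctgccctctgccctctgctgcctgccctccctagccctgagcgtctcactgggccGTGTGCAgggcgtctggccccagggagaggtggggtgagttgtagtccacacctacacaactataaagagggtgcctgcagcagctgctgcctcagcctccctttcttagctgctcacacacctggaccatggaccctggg
Mt3: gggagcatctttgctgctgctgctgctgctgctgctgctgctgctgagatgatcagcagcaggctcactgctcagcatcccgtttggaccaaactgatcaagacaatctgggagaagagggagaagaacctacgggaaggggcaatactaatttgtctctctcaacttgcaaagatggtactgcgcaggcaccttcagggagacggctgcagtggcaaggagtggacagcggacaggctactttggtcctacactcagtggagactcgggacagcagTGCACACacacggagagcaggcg
Mt2: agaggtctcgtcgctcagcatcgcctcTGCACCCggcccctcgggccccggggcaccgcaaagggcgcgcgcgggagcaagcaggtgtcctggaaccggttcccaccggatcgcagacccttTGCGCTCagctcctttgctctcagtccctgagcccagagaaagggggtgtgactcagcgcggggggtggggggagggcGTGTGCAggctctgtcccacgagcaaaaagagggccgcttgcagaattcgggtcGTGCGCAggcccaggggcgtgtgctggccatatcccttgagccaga
Mt1: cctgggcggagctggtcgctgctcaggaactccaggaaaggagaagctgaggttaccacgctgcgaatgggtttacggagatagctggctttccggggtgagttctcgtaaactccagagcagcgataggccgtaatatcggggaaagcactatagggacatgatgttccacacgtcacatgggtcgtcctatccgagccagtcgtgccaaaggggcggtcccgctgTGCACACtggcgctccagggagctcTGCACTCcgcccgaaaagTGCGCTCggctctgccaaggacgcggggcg
Ptn: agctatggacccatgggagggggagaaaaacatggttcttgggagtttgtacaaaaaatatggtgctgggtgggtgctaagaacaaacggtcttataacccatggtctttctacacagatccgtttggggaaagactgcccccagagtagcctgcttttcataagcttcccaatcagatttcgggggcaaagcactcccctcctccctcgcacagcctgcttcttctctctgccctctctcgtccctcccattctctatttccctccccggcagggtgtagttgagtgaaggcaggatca
The core was found 4 times in the window of Mt2 and 3 times in that of Mt1, against 1 time each in those of Mt4 and Mt3 and none for Ptn. At least 1 match was present in 25.7% of 32851 promoter windows, and 4 or more in 0.517%. The TCF/LEF motif (CTTTGAT or CTTTGAA, either strand) had no match in these 5 windows and 1 in that of Spock2, with at least 1 in 8.65% of all windows. These are counts of letters in short windows.

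Levels are given as CPM, the UMIs of a gene per 1000000 UMIs of the cells summed within a tumor. Ptn lay at 422 to 1159 CPM (median 854) in the members of the 10 tumors and at 13.1 to 71.3 CPM in the other gated cells. Mt4 lay at 703 to 3373 CPM (median 1789) in members and at 2.58 to 24.8 CPM in the others. The rule fixes both differences. Mt3, the neighbor of Mt4, was not in the rule, and it lay at 879.8 to 2755 CPM in members and 82.3 to 622 CPM in the other gated cells, without overlap. Spock2, which encodes a matrix proteoglycan, lay at 353 to 961 CPM in members and 56.2 to 317 CPM in the others, again without overlap. The intracellular Wnt inhibitor gene Nkd1 ranged from 509 to 867 CPM in members and from 176 to 580.0 CPM in the others, and Wif1, a secreted Wnt inhibitor gene, from 332 to 1066 CPM in members and from 112 to 426 CPM in the others. The ranges of these 2 overlapped between tumors. Axin2 was nearly level, at 196 to 257 against 194 to 231 CPM. All 6 markers had a UMI in 53.9% of the members and in 1.01% of the other gated cells. Ptn, Mt4, Nkd1 and Wif1 are in the rule and members were deeper, so the choice of cells fixes much of this contrast. Mt3 and Spock2, outside the rule but given as markers on the same data, are no independent check of the label.

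Members made up 47.7%, 28.7%, 38.7% and 40.9% of the gated cells in tumors 1 to 4, 49.1%, 13.8%, 58.8% and 49.3% in tumors 5 to 8, and 28.7% and 26.7% in tumors 9 and 10. Tumors 6 and 7, the lowest and the highest, came from the same mouse, and their exact 95% binomial intervals, which cover counting error only, were 11.3% to 16.5% and 55.2% to 62.2%. By mouse, the mean share was 42.8% (A), 27.7% (B) and 39.0% (C), a difference that did not pass (F = 0.781, p = 0.463, two-sided exact permutation test over 3150 arrangements of the tumors). Without tumor 6 the mean of mouse A was 52.4% and the difference passed (F = 9.16, p = 0.0262, exact permutation test over 1260 arrangements), so the call turned on 1 tumor. Each mouse had its own age, and mouse and age cannot be told apart.

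**Figure D1:**
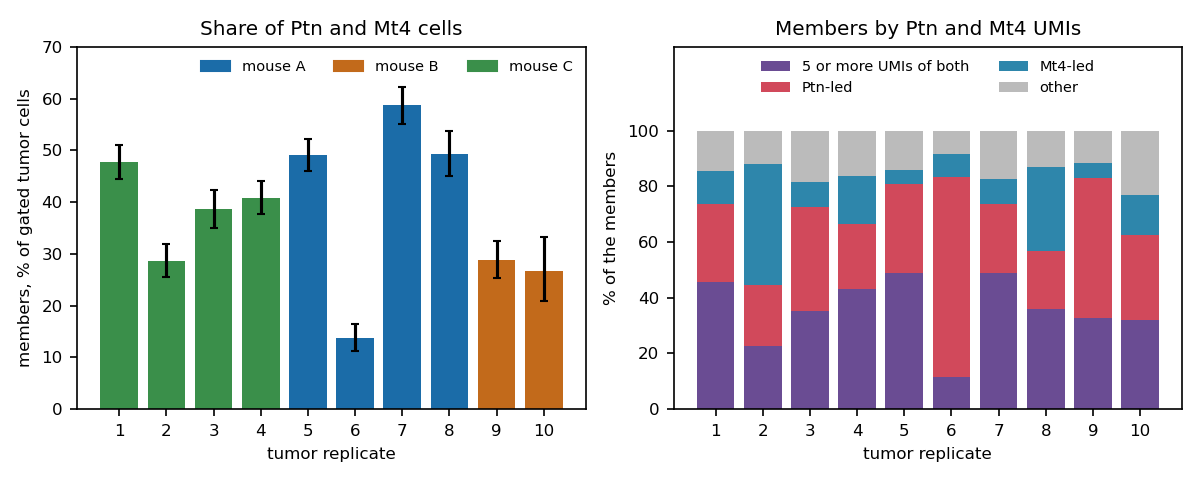
The left panel plots members as a percent of gated tumor cells in each of 10 tumors, with exact 95% binomial intervals and colors for the mouse. The right panel divides the members of each tumor by their Ptn and Mt4 UMIs. Tumor 6 has the lowest share (13.8%) and the highest part of Ptn-led members (71.9%).

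Ptn and Mt4 UMIs were graded over the gated cells. Neither gene had a UMI in 2890 cells, while 234 cells had 4 UMIs of the pair, just outside the rule, 152 had 5, just inside it, and 529 members had at least 100. Cells with 3 or 4 UMIs held Mt3 at 414 CPM and Spock2 at 246 CPM, cells with 5 to 7 held 609.5 and 344 CPM, and cells with 64 or more held 2768 and 973 CPM. The markers thus showed no gap at the limit of 5 UMIs. These levels are summed over the tumors, which fill the bins unequally. Within the 8 tumors with at least 20 cells in both the first and the last bin, Lgr5, a receptor gene of intestinal stem cells, had a median of 82.0 CPM in cells with no UMI of the pair and 36.3 CPM in cells with 64 or more, and was lower in the last bin in 8 of 8. The Lgr5 median was already 35.7 CPM over 9 tumors in cells with 3 or 4 UMIs, outside the members. It was 31.95 to 37.8 CPM in the bins of members. Cdkn2a, the p16 gene, had medians of 52.4 and 58.1 CPM in the first and last bin of the 8 tumors. It was lower in the last bin in 4 tumors and higher in 4. Over 9 tumors it had a median of 94.6 CPM in cells with 8 to 15 UMIs. Median UMIs per cell went from 9364 to 22330 over the same range, and the bins were not matched for it.

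**Figure D2:**
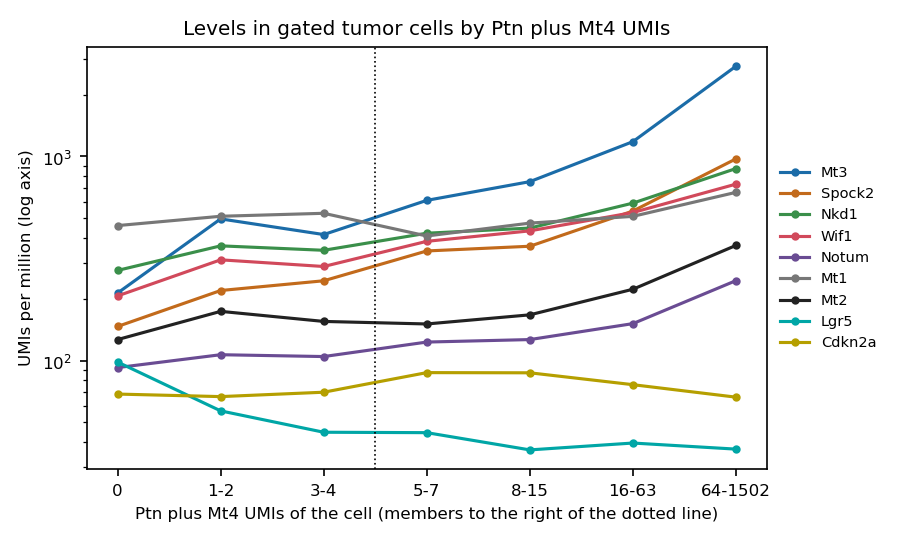
CPM (log axis) of 9 genes in gated tumor cells binned by their Ptn plus Mt4 UMIs, summed over 10 tumors, with members to the right of the dotted line. Mt3 stands at 214 CPM in the first bin and 2768 CPM in the last, and Lgr5 at 98.4 and 36.9 CPM, sums to which the tumors contribute unequally.

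Outside the Wnt gate the pair was followed by the number of Wnt gene UMIs. At least 5 UMIs of the pair occurred in 38 of 2435 tumor epithelial cells with 1 or 2 UMIs of the 5 Wnt genes (1.56%, median depth 8674 UMIs), in 4 of 3950 tumor epithelial cells with none (0.101%, median depth 9928 UMIs) and in 6 of 46431 barcodes with a Ptprc UMI and no epithelial gene UMI (0.0129%, median depth 3807 UMIs). After thinning each cell to 5000 UMIs, at least 1 UMI of the pair remained in 54.0% of gated tumor cells against 8.69%, 2.32% and 1.32% of those 3 populations (60.1%, 13.55%, 5.04% and 1.85% without thinning, with 829, 582, 978 and 28210 shallower cells left out). The rule also sets aside deeper cells. Of 2089 cycling cells with fewer than 10 Lyz1 UMIs, 849 (40.6%, median depth 22030 UMIs) had 5 UMIs of the pair or more. Of 356 noncycling cells with at least 10 UMIs of the Paneth cell gene Lyz1, 48 (13.5%, median depth 20450 UMIs) reached that level. Gated tumor cells had a median depth of 13640 UMIs. After thinning, at least 1 UMI of the pair remained in 49.05% of these cycling cells and 17.1% of these Lyz1 cells. In the mucosa, 1 of 242 cells that passed the gate had 5 or more UMIs of the pair (0.413%, exact 95% interval 0.0105% to 2.28%). That cell, in mucosa 2, held 5 UMIs of Ptn and 43 of Mt4 among 6719, and its barcode was in no other library.

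The members were compared with the other gated cells of the same 10 tumors. They had more transcripts of neuropeptide Y, of lipase-related genes, of vimentin, of Dkk3, of the Wnt inhibitor gene Apcdd1 and of the Wnt ligand genes Wnt6 and Wnt10a. They had fewer of goblet and absorptive genes, of Ceacam1 and of Lgr5. Among 11898 genes tested, 3259 (27.4%) were higher in members and 3320 (27.9%) were lower, 323 and 496 of them by more than 1 on the log2 scale. On cells matched for total UMIs, 2261 (20.7%) of 10942 genes were higher and 2156 (19.7%) lower, and of the genes called in the full comparison and tested again, 61.2% were called in the same direction. These shares are the background for the counts of listed genes that follow. Any gene whose transcripts accompany Ptn or Mt4 from cell to cell differs here through the choice of members.

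Npy, the gene of neuropeptide Y, had 3.66, 65.0 and 267 CPM (lowest, median, highest tumor) in members and 0, 0.600 and 2.5 CPM in the other gated cells. The members of tumor 10 were the highest and those of tumor 2 the lowest, and no tumor overlapped (log2 fold change 6.52 ± 0.29 (SE), n = 10, adjusted p = 1.84e-10, edgeR quasi-likelihood test). Pnliprp2, a pancreatic lipase-related gene, had 23.0, 108 and 567 CPM in members and 2.23, 10.0 and 41.0 CPM in the others (4.09 ± 0.35), and its relative Pnliprp1 had medians of 191 and 39.1 CPM (2.67 ± 0.27). Vim, which encodes the intermediate filament vimentin, was abundant, with 528, 1134 and 1586 CPM in members against 84.3, 206 and 530.1 CPM (2.30 ± 0.12, adjusted p = 1.03e-09). Pnliprp2 and Vim were higher in members in 10 of 10 tumors, though the ranges of the tumors overlapped. Mptx2, a pentraxin gene known from Paneth cells, had a median of 62.1 CPM in members and 0.480 CPM in the others. The proline synthesis gene Pycr1 (2.65 ± 0.11), the glutathione transferase gene Gstm7 (2.5 ± 0.11), Tesc (2.36 ± 0.13), Smpx (2.19 ± 0.09), Tex15 (1.84 ± 0.08) and Sbspon (1.78 ± 0.13) also rose. Each of these genes was called again on matched cells.

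Among the falls, Spink4, a goblet cell gene, had 6.75, 16.5 and 182 CPM in members and 27.0, 174 and 811 CPM in the other gated cells (-2.65 ± 0.41). Ceacam1, an adhesion gene of the surface epithelium, had 8.97, 16.1 and 67.8 CPM against 63.7, 109 and 164 CPM (-2.56 ± 0.15). Ceacam1 was lower in members in 10 of 10 tumors, and the ranges of both genes overlapped. Noxo1, which organizes an NADPH oxidase, had 7.005 to 31.5 CPM in members and 48.3 to 79.3 CPM in the others (-2.30 ± 0.13). The trefoil gene Tff3 (-2.37 ± 0.42), Phgr1 (-2.30 ± 0.21), AA467197 (-2.29 ± 0.21), the peptide YY gene Pyy (-2.22 ± 0.67), Lypd8 (-2.18 ± 0.26), Myl7 (-2.17 ± 0.21), the tetraspanin gene Tspan8 (-2.17 ± 0.17), Sprr2b (-1.96 ± 0.46) and Adgrl2 (-1.82 ± 0.08) fell as well. All 12 were called again on matched cells, but Pyy did not pass when the comparison cells were also required to have no Ptn or Mt4 UMI (adjusted p = 0.0667).

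**Figure D3:**
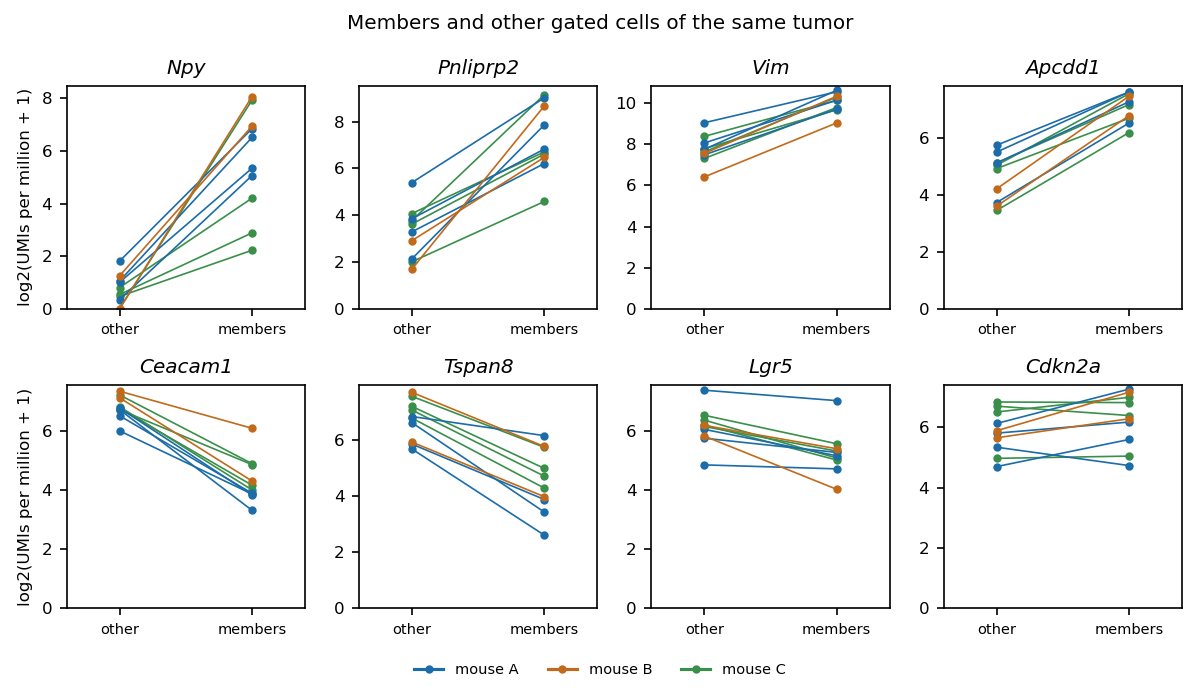
Each line joins the other gated cells and the members of 1 tumor, colored by mouse, as log2(CPM + 1) for 8 genes. Npy, Pnliprp2, Vim and Apcdd1 go up in all 10 tumors and Ceacam1, Tspan8 and Lgr5 go down in all 10, while Cdkn2a goes up in 7.

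Wnt targets outside the rule split. Of 21 tested of 25 listed, 9 were higher and 8 lower in members (median log2 difference -0.17, against -0.01 over all genes). Dkk3, of the Dickkopf family, had a median of 45.3 CPM in members and 5.49 CPM in the others (2.68 ± 0.15). Apcdd1, a membrane-bound Wnt inhibitor gene, had 72.2, 149 and 196 CPM against 9.96, 30.7 and 52.8 CPM (2.42 ± 0.13). The transcription factor genes Sp5 (1.31 ± 0.08), Lef1 (0.82 ± 0.06) and Tcf7 (0.67 ± 0.08) rose less. Cd44 (-1.0 ± 0.10) and the ephrin receptor gene Ephb3 (-0.86 ± 0.08), both known from the crypt base, fell. Lgr5 had 15.3, 36.4 and 131 CPM in members against 28.0, 71.5 and 167 CPM in the others and was lower in 10 of 10 tumors (-0.83 ± 0.10, adjusted p = 3.30e-06).

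Of 15 tested stem cell genes 8 were lower and 3 higher (median -0.30). Lrig1, a brake on ERBB receptors, had medians of 5.07 and 28.5 CPM in members and others (-2.26 ± 0.11), the ion transporter gene Slc12a2 had 120.5 and 359 CPM (-1.59 ± 0.06), and Msi1, an RNA-binding protein gene, went the other way (1.22 ± 0.19). Among Wnt ligands and receptors, 5 of 17 tested were higher and 6 lower. The ligand genes Wnt6 (medians 189 and 66.7 CPM, 1.78 ± 0.11) and Wnt10a (93 and 26.7 CPM, 1.67 ± 0.17) and the receptor gene Fzd10 (8.49 and 1.07 CPM, 2.56 ± 0.22) rose, and Fzd7 fell (-1.25 ± 0.14).

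Mt2 also rose, at 139, 247 and 333 CPM in members against 63.2, 141 and 217 CPM in the others (0.87 ± 0.08, adjusted p = 2.10e-07). Mt1 had medians of 525 and 469 CPM and differed less (0.22 ± 0.07, adjusted p = 0.0173), and it did not pass on matched cells (0.16, adjusted p = 0.164). Metallothionein genes are paralogs, and counts of the 4 could share reads. Of 21 tested genes of zinc and copper handling, 6 were higher and 6 lower, with the zinc exporter gene Slc30a2 at 0.88 ± 0.07 and the importer gene Slc39a4 at -0.74 ± 0.07, and 3 were higher on matched cells. Among pleiotrophin receptors and partners, 8 of 11 tested were lower, among them Nrp1 (-1.23 ± 0.28) and Itgav (-0.59 ± 0.08), and 1 was higher (Ptprs, 0.28 ± 0.05). On matched cells 5 of 9 were lower and 2 higher. The receptor gene Ptprz1 had medians of 86.1 and 109 CPM (-0.24 ± 0.07) and did not pass on matched cells (adjusted p = 0.878). Mdk, the gene of the related factor midkine, was too low to test, at 0.440 to 5.38 CPM in members.

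Goblet, absorptive and identity genes were lower in the members. Of 6 tested goblet genes 5 fell (median -1.58), of 6 absorptive genes 6 fell (median -1.53), and of 11 epithelial identity genes outside the rule 10 fell, with Lgals4 at -1.56 ± 0.08, the intestinal factor gene Cdx1 at -1.13 ± 0.10 and the villin gene Vil1 at -0.83 ± 0.05. None of these lists had a rise. Of 3 tested tuft genes 2 fell. Of 4 tested Paneth genes 2 rose, Pnliprp2 and the lectin gene Itln1 (0.35 ± 0.14), and 1 fell, the matrilysin gene Mmp7 (-0.16 ± 0.06). Of 2 tested enteroendocrine genes 1 rose, the prohormone-processing gene Cpe (0.63 ± 0.15). Epcam stayed high, at 1850 to 2507 CPM in members and 2055 to 3012 CPM in the others. In the list of fetal-like regenerative genes, 9 of 16 tested fell and 3 rose (1 on matched cells). Ly6a, which encodes Sca-1, had medians of 222 and 573 CPM (-1.33 ± 0.15) and Clu, the clusterin gene, had 120.3 and 288 CPM (-1.09 ± 0.13). Ccn2 (-2.65 ± 0.34) and Il1rn (-1.72 ± 0.08) fell too, and Ecm1 rose (0.75 ± 0.13). Of 17 tested matrix and protease genes 9 fell and 3 rose (median -0.23), with the fibronectin gene Fn1 at medians of 86.9 and 187 CPM (-0.82 ± 0.12) and the protease inhibitor gene Timp1 higher in members (1.05 ± 0.06). On matched cells 9 of 16 fell and 2 rose.

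Of 8 tested EGF receptor ligands and ERBB receptors 7 fell, with the ligand gene Areg at -1.03 ± 0.17 and Egfr at -0.66 ± 0.11. Of 15 TGF-beta, BMP and activin genes 7 rose and 3 fell, led by the ligand gene Bmp7 (1.31 ± 0.10) and Id3, a target of BMP signals, with medians of 586 and 281 CPM (0.96 ± 0.06). Proliferation genes outside the rule fell in 10 of 18, with Cenpf at -1.27 ± 0.13, in populations that the rule limits to fewer than 4 UMIs of Mki67 and Top2a, and 6 of 18 fell on matched cells. Of 15 hypoxia and glycolysis genes 9 fell, with Car9 at -1.19 ± 0.16. All 6 MHC class II genes fell, with H2-Aa at -0.90 ± 0.15, and 11 of 14 interferon-stimulated genes fell. Called genes of MHC class I went both ways. B2m rose and was higher in members in each tumor, while Tap1, Tap2 and Nlrc5 fell. Nlrc5 did not pass on matched cells. In the list of one-carbon metabolism and DNA methylation, 8 of 26 fell, with Cbs at -0.93 ± 0.19, and 4 rose.

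Among 11 tested cell cycle inhibitors and p53 axis genes, 4 rose and 1 fell. Cdkn1c, the gene of p57, had 83.8, 219 and 453 CPM in members against 44.2, 67.2 and 136 CPM in the other gated cells and was higher in 10 of 10 tumors (1.65 ± 0.08, adjusted p = 6.15e-10). Cdkn2a, whose counts do not separate the transcripts of p16 and p19Arf, had 25.6, 80.0 and 153 CPM in members against 24.9, 56.6 and 114 CPM. It was higher in 7 of 10 tumors with wide overlap (0.37 ± 0.15, adjusted p = 0.0448), and it did not pass on matched cells (0.07, adjusted p = 0.744).

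Transcripts of other cell types were present in both populations. Neutrophil markers summed to 145 to 752 CPM in members and 84.3 to 828 CPM in the other gated cells, monocyte and macrophage markers to 44.8 to 86.8 and 75.5 to 180.0 CPM, and B and plasma cell markers to 84.0 to 3890 and 90.3 to 7360 CPM, and no marker of these lists was at 0 in either. Of 6 tested neutrophil markers 2 fell and of 7 monocyte and macrophage markers 6 fell, and none rose. On matched cells no neutrophil marker fell and 1 rose (G0s2). Endothelial, mast and red cell markers summed to 4.40 to 1590 CPM in members (median 436) and 4.59 to 1890 CPM in the others (median 19.8), and 3 of 4 tested rose, the hemoglobin genes Hbb-bs (2.56 ± 0.85) and Hba-a1 (2.49 ± 0.64) and the endothelial gene Cdh5 (1.21 ± 0.24). Hbb-bs lay at 658 to 1207 CPM in the members of tumors 1 to 4 and 8 and at 0.440 to 8.87 CPM in those of the other tumors. On matched cells Hbb-bs did not pass (1.47, adjusted p = 0.255), Hba-a1 was not tested, and Cdh5 rose (0.96, adjusted p = 0.0110). The part of these cells in the differences was not tested. Without the cells that held over 10 UMIs of leukocyte and fibroblast markers (35.2% of members and 27.1% of the others), 2905 genes were higher and 2635 lower.

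The members were then compared with mucosa epithelial cells that passed the same gate. They had more transcripts of the Wnt inhibitor genes Dkk2 and Apcdd1, of the ligand genes Wnt10a and Wnt6, of Cdkn2a and of matrix genes, and had little of Cdx2 and of the goblet and absorptive transcripts of the mucosa. The mucosa set was small, with 109, 49 and 84 cells in mucosa 1 to 3, and it took in enteroendocrine cells. Among 12384 genes tested, 3074 (24.8%) were higher in members and 2610 (21.1%) were lower. Without mucosa cells that had enteroendocrine or tuft UMIs, 92.9% of the calls tested again were called in the same direction.

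Several genes had no UMI in the 3 mucosa sums, and their folds are bounds against the level that 3 UMIs over all mucosa cells would give. Onecut2, a transcription factor gene, had 57.1, 118 and 280.3 CPM in members, at least 249.9-fold higher (adjusted p = 7.09e-06). Dkk2, a secreted Wnt inhibitor gene, had 32.6, 104 and 176 CPM and was at least 163-fold higher, and the Wnt ligand gene Wnt10a, with 38.7, 93 and 137 CPM, at least 151-fold. All 3 had UMIs in the members of every tumor. Basp1 was at least 229-fold higher, the endoderm factor gene Sox17 at least 146-fold, Mptx2 at least 220.5-fold and Npy at least 146-fold.

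Cdkn2a was among these genes, with 25.6, 80.0 and 153 CPM in members and no UMI in the mucosa, at least 122-fold higher (adjusted p = 0.000113). Its neighbor Cdkn2b had medians of 32.1 and 7.35 CPM (2.93 ± 0.78), but the difference turned to -0.65 (adjusted p = 0.173) against all noncycling mucosa epithelial cells. Cdkn1c had medians of 219 and 31.2 CPM (2.79 ± 0.44). In all, 8 of 12 tested cell cycle inhibitors and p53 axis genes rose and 2 fell, and 13 of 18 proliferation genes outside the rule fell. The rule caps the raw Mki67 and Top2a UMIs of a cell in members and mucosa cells alike, and the comparison with mucosa was not matched for total UMIs. The part of this cap in the fall of the proliferation genes was not tested.

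Of 21 tested Wnt targets outside the rule 12 were higher and 6 lower in members (median log2 difference 1.75, against 0.06 over all genes). Lef1 had medians of 59.4 and 0.827 CPM (6.00 ± 0.31), Apcdd1 had 149 and 1.65 CPM (5.44 ± 0.68), and the ligand gene Wnt6 had 189 and 3.31 CPM (6.63 ± 0.63). Wnt ligands, receptors and R-spondins as a list did not lean one way, with 5 of 17 tested higher and 5 lower (median -0.07). Wnt10a, Wnt6, Wnt4, Fzd10 and Fzd6 were higher, and the receptor genes Fzd1, Fzd2, Fzd3, Fzd5 and Fzd8 lower. Lgr5 did not pass, at 15.3 to 131 CPM in members and 16.5 to 36.2 CPM in mucosa cells of this gate (0.50 ± 0.48, adjusted p = 0.420). Mt1 did not pass either, at 424 to 668 CPM in members and 431 to 656 CPM in mucosa (0.01 ± 0.18, adjusted p = 0.973), and its sign changed between settings. Mt2 was 0.72 ± 0.23 higher (adjusted p = 0.0168). Slc30a2 had medians of 134 and 6.62 CPM (5.16 ± 0.45). Ptprz1 had 58.6 to 127 CPM in members and 0 to 1.84 CPM in mucosa, from 2 UMIs, a ratio of 216 with a counting interval of 59.7 to 1782. Mdk had 0.440 to 5.38 CPM in members and did not pass (adjusted p = 0.0900). With 3 mucosa sums, of which the smallest held 544427 UMIs, a difference that did not pass here is not shown to be absent.

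Regenerative and matrix genes were higher than in the mucosa. Of 15 tested fetal-like genes 13 rose and none fell (median 3.63, or 3.55 with genes at 0 set to their bound). Clu had medians of 120.3 and 1.65 CPM (6.30 ± 1.35). Clu thus stood above the mucosa and below the other gated tumor cells. Of 18 matrix and protease genes 16 rose and none fell (median 4.57, or 3.19 at the bounds), with the matrilysin gene Mmp7 at medians of 260.4 and 22.3 CPM and Fn1 at 86.9 and 1.65 CPM. Mmp7 and Fn1 were lower in members than in the other gated tumor cells, as were most called genes of this list. Of 16 TGF-beta, BMP and activin genes 11 rose, with the activin antagonist gene Fst at 21.0 to 78.2 CPM against no UMI. The largest called changes among EGF receptor ligands (Areg, Tgfa, Hbegf and Btc) were rises too. So were those among hypoxia genes (Ankrd37, Bnip3, Egln3 and Adm) and interferon-stimulated genes (Gbp2, Gbp3, Isg15 and Ifit1). Areg, Adm, Gbp2, Isg15 and Ifit1 turned negative, without passing, against all noncycling mucosa epithelial cells. For the EGF receptor, hypoxia and interferon lists only these largest changes are given, so a lean of the whole lists against mucosa is not shown. Most tested genes of each of these lists were lower in members than in the other gated tumor cells. All 15 immediate early and dissociation stress genes rose, with Atf3 at medians of 509.8 and 9.18 CPM, and the dissociation protocols differed between the tissues. Against the other gated tumor cells, the 4 called genes of this list with the largest change (Dusp1, Jun, Btg2 and Hspa1b) were lower in members. High levels of these genes are thus not shown to be particular to the members.

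Goblet, absorptive and MHC class II genes were lower in members. The intestinal identity factor gene Cdx2 had 0, 0.0991 and 4.84 CPM in members and 185, 204 and 212 CPM in the 3 mucosa sums (-9.21 ± 0.48, adjusted p = 9.95e-10). Cdx2 was too low to test against the other gated tumor cells, so its low level is not shown to be particular to the members. The mucin gene Muc2 had 0.626 to 33.6 CPM against 1970 to 4623 CPM, and Retnlb, of goblet cells, had 0 to 0.441 CPM against 473 to 1278 CPM. Gcnt3 fell by 8.75 and Foxd2os fell by 8.71 on the log2 scale. Of 8 tested goblet genes 6 fell, and all 8 absorptive and all 6 MHC class II genes fell, with H2-Aa at medians of 49.3 and 572 CPM. Mucosa 1 stood apart in 4 of the 8 absorptive genes, Car1, Saa1, Clca4b and Emp1, where its level did not exceed the range of the members. Car1, a carbonic anhydrase gene, had 0.653, 714 and 2781 CPM in mucosa 1 to 3 and 0.440 to 341 CPM in members, and Saa1 had 0.326, 360.0 and 49.6 CPM and 0.465 to 11.7 CPM. The other 4 (Fabp2, Krt20, Guca2a and Guca2b) were higher in each mucosa sum than in the members of any tumor. Chga, Chgb, Tph1, Resp18, Neurod1, Pcsk1n and the tuft cell gene Rgs13, also among the 12 largest falls, mark enteroendocrine and tuft cells, whose genes summed to 2000 to 13400 and 8.27 to 158 CPM in the gated mucosa cells. Without the mucosa cells that had enteroendocrine or tuft UMIs, none of these 7 genes was tested, and the enteroendocrine gene Cpe turned from lower (-2.72) to higher in members (adjusted p = 8.94e-05), while the other 5 of the 12 largest falls passed again. Of 26 tested genes of one-carbon metabolism and DNA methylation 12 fell, with Cbs at medians of 8.03 and 95.9 CPM (-3.56 ± 0.35), and 2 rose.

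The neutrophil genes S100a8 and S100a9 and the chemokine genes Cxcl1 and Cxcl2 were among the 12 largest rises. S100a8 had 45.4, 99.1 and 259.7 CPM and Cxcl1 29.3, 65.1 and 158 CPM in members, against no UMI in mucosa, at least 192-fold and 111-fold higher. All 5 tested neutrophil markers rose, and the list summed to 145 to 752 CPM in members and 0 to 1.84 CPM in mucosa, where 5 of 6 markers were at 0. 6 of 7 monocyte and macrophage markers and 2 of 3 B and plasma cell markers rose. Without the cells that held over 10 UMIs of leukocyte and fibroblast markers, S100a8 (adjusted p = 0.000187) and Cxcl1 (adjusted p = 9.44e-05) still passed. The part of free RNA from leukocytes in these rises was not tested.

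**Figure D4:**
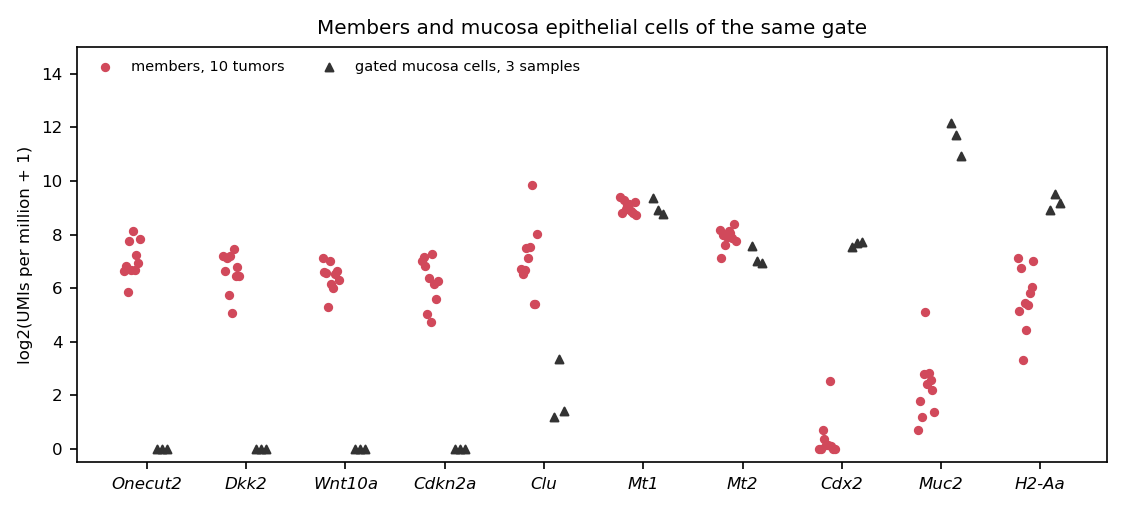
Log2(CPM + 1) of 10 genes in the members of 10 tumors (circles) and in mucosa cells of the same gate in 3 samples (triangles). Onecut2, Dkk2, Wnt10a and Cdkn2a have no UMI in the mucosa sums, Mt1 overlaps, and Cdx2, Muc2 and H2-Aa are higher in the mucosa.

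The members differed among themselves in which gene of the pair they carried. Of all members, 1160 (40.3%) had at least 5 UMIs of both genes, 871 (30.3%) were Ptn-led, with at least 5 of Ptn and at most 1 of Mt4, 415 (14.4%) were Mt4-led, with the reverse, and 431 (15%) had another mix. The Ptn-led part ran from 21.2% in tumor 8 to 71.9% in tumor 6, and the Mt4-led part from 5.20% in tumor 5 to 43.3% in tumor 2. Mt4-led and Ptn-led members were compared in the 7 tumors with at least 20 cells of each (tumors 1 to 5, 7 and 8, from mice A and C), with 389 and 691 cells. Median depth per tumor was 9622 to 18072 UMIs in Mt4-led and 15710 to 21199 UMIs in Ptn-led members, so matched cells were compared here too.

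Mt4-led members had more of the other metallothioneins, of Pnliprp1 and Pnliprp2 and of Cdx1, and Ptn-led members had more of the Cdkn2a locus, of Clu and of matrix genes. Of 8569 genes tested, 153 (1.79%) were higher in Mt4-led and 136 (1.59%) higher in Ptn-led members. On matched cells, 157 of 247 calls that could be tested again (63.6%) were called in the same direction.

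Mt2 had 235, 296 and 553 CPM (lowest, median, highest) in Mt4-led and 118, 154 and 201 CPM in Ptn-led members (0.95 ± 0.11, n = 7, adjusted p = 0.000334, edgeR). Mt1 had 537, 650.5 and 903 CPM against 347, 453 and 532 CPM (0.69 ± 0.10, adjusted p = 0.00158). Neither gene overlapped between the sets, and both passed on matched cells. Mt1, which barely differed between members and the other gated cells, thus differed between the sets of members. Mt3, described without a test, had medians of 1724 and 897 CPM. The zinc exporter gene Slc30a2 was 0.78 ± 0.14 higher in Mt4-led members.

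Pnliprp1 had 69.0, 176 and 292 CPM in Mt4-led and 18.1, 43.4 and 119 CPM in Ptn-led members (2.03 ± 0.26, adjusted p = 0.000853), and Pnliprp2 rose by 2.01 ± 0.41. The trypsin inhibitor gene Spink1 had 5.04, 10.2 and 186 CPM against 0.790, 5.18 and 13.1 CPM (2.74 ± 0.41) and could not be tested on matched cells. Cdx1 had 28.3 to 62.8 CPM in Mt4-led and 8.18 to 25.3 CPM in Ptn-led members (1.45 ± 0.16), and Notch1 (0.83 ± 0.16) and Hes6 (0.48 ± 0.09), genes of the Notch pathway and of secretory fate, were higher. Maoa (1.20 ± 0.19), Abcc2 (1.09 ± 0.16), Rnf32 (1.04 ± 0.12), Tex15 (1.03 ± 0.16), Tmem97 (0.94 ± 0.09), Prkg2 (0.90 ± 0.12) and Prex2 (0.86 ± 0.15) rose as well. The interferon-induced chemokine gene Cxcl10 (1.58 ± 0.28) did not pass on matched cells (0.92, adjusted p = 0.237). Of 20 Wnt targets tested outside the rule 1 passed, Sp5 (0.71 ± 0.18), and it did not on matched cells (adjusted p = 0.0908).

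Cdkn2a had 5.04, 18.2 and 74.0 CPM in Mt4-led and 28.6, 139 and 207 CPM in Ptn-led members and was lower in the Mt4-led cells of 7 of 7 tumors, though the ranges of the tumors overlapped (-1.88 ± 0.25, adjusted p = 0.000998, and -1.86 on matched cells, adjusted p = 0.000793). Its neighbor Cdkn2b, which encodes p15, had medians of 14.2 and 41.9 CPM (-1.32 ± 0.22, adjusted p = 0.00501). Mtap, the methylthioadenosine phosphorylase gene next to Cdkn2a, had medians of 34.2 and 82.9 CPM (-1.32 ± 0.17, adjusted p = 0.000998). All 3 genes lie within 174 kb (chr4:89137122-89311039), were lower in Mt4-led members in 7 of 7 tumors and passed on matched cells. Of 10 tested cell cycle inhibitors and p53 axis genes 3 were lower in Mt4-led members (Cdkn2a, Cdkn2b and Ccng1) and none higher.

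**Figure D5:**
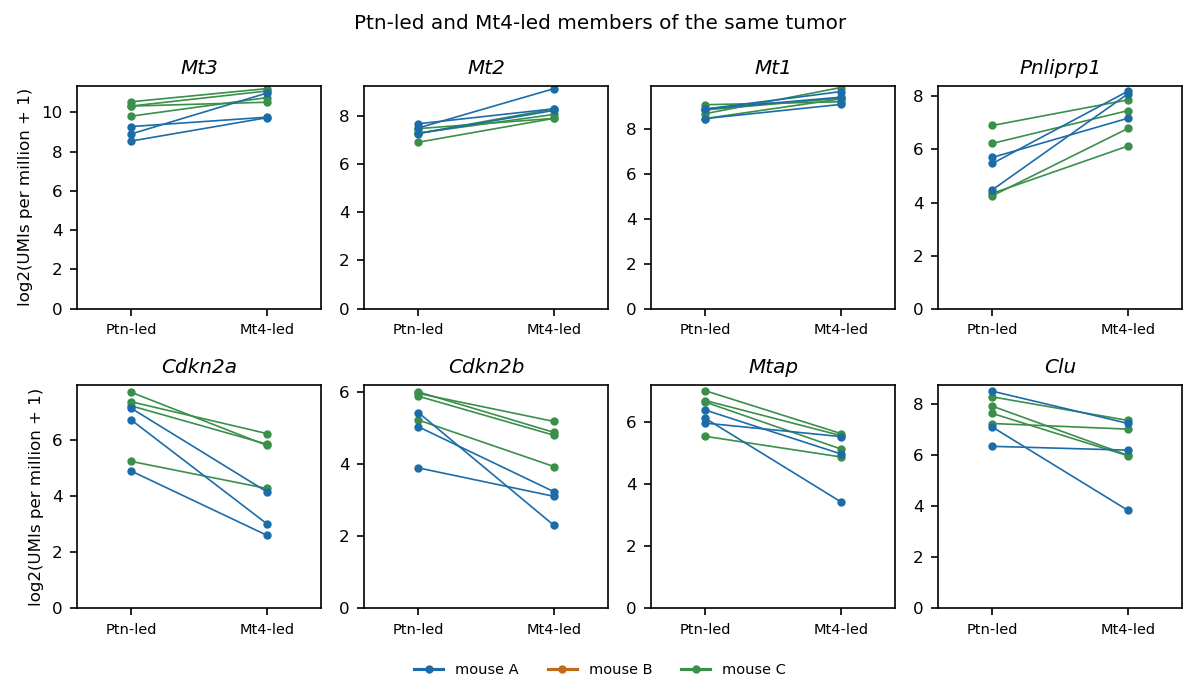
Each line joins the Ptn-led and Mt4-led members of 1 of 7 tumors from mice A and C, as log2(CPM + 1). Mt3, Mt2, Mt1 and Pnliprp1 are higher in Mt4-led members in all 7 tumors, and Cdkn2a, Cdkn2b, Mtap and Clu are lower in all 7.

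Other genes were higher in Ptn-led members as well. Clu had 13.3, 72.5 and 164 CPM in Mt4-led and 80.5, 199 and 365 CPM in Ptn-led members (-1.24 ± 0.26), and Mmp7 had 125 to 257 CPM against 268 to 564 CPM, without overlap (-0.91 ± 0.10). Of 14 tested fetal-like genes 3 were lower in Mt4-led members and 1 higher (0 on matched cells), and of 13 matrix and protease genes 4 were lower and 0 higher. The antimicrobial lectin gene Reg3b (-2.12 ± 0.36), the cytokine gene Il33 (-1.31 ± 0.22), Onecut2 (-1.29 ± 0.13), Sox17 (-1.25 ± 0.20), Cald1 (-1.18 ± 0.18), Ecm1 (-1.06 ± 0.27), Phlda3 (-1.04 ± 0.19) and Aoc1 (-1.04 ± 0.22) were lower in Mt4-led members. The keratin gene Krt17 (-1.95 ± 0.40) and the plasminogen activator gene Plat (-1.03 ± 0.22) did not pass on matched cells (adjusted p = 0.291 and 0.0959), and Il33 could not be tested there. Lgr5 did not pass (0.50 ± 0.22, adjusted p = 0.288). Neutrophil markers summed to 50.7 to 1040 CPM in Mt4-led and 41.4 to 806 CPM in Ptn-led members, and no tested neutrophil, macrophage or B cell marker passed.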

How the data were processed

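The authors deposited an unnormalized matrix of UMI counts per gene and barcode for each of 13 libraries (10x 3′ chemistry). The submitters' processing notes name Cell Ranger 6.0.0 and mm10, and UMI counting leaves 1 count per captured molecule. The animal code in each label gave the mouse. Members were chosen by thresholds on raw UMIs, and the members, the comparisons and the gene lists were chosen with earlier results of these data known.

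Counts of the cells of a population were summed per library, and sums with at least 20 cells were tested with edgeR 4.0.16 (R 4.3.3, quasi-likelihood test, Benjamini-Hochberg adjustment over all genes tested, threshold 0.05), with the library as a block inside the tumors and without a block against mucosa. Log2 fold changes are given with their standard errors. The scripts (Python 3.11.15, scipy 1.17.1) were tested on simulated counts. Depth matching sampled cells in bins of 0.25 on the log2 scale of total UMIs, and thinning drew 5000 UMIs per cell. Doublets were not removed in the main comparisons. Cells with the highest doublet scores (scanpy 1.11.5), 151 of the members (5.25%) and 5.61% of the other gated cells, were left out as an alternative.

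In each comparison the text names, outside the rule genes and markers, the 12 largest rises and 12 largest falls among called genes with a mean of at least 50 CPM in the higher population and the same direction in at least 9 in 10 tumors (no overlap, against mucosa), up to 4 of the called genes of a list with the largest change, and Cdkn2a, Lgr5, Mt1, Mt2 and Mdk. Genes named beyond these, such as Lef1, Tcf7, Ephb3 and Ptprs, were chosen after their values were seen. A few genes that the rule selects are not reported here. Further alternatives were DESeq2 1.42.0, other filters and thresholds, mouse sums and blocks, and leaving out each library. Leaving out cells with other-cell markers, matching to cells with no Ptn or Mt4 UMI and leaving out the mucosa cell with Ptn and Mt4 were added after seeing the data.

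Tumors and mucosa are paired by the animal. Across genes, which are not independent replicates, r between tumor and mucosa deviations was 0.0355 (A), -0.0313 (B) and 0.0678 (C). The mouse as a replicate block gave 3071 higher and 2654 lower genes against mucosa. Under it 116 named genes kept their direction and side of the threshold, and 2 kept their direction but no longer passed. In sums per mouse of members against the other gated cells, these numbers were 116 and 6. Intervals cover counting error only.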

Additional observations from a re-analysis of the deposited data

Results flagged for a closer look

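Of 32 sets of 10 tumor levels tested for a single tumor far from the others (Dixon's test), 7 stood out, each with a high value. For independent sets of normal values chance gives about 1 in 20, or 1.6 here. The levels were not logged and came mostly from genes chosen for large differences, so 7 against 1.6 does not measure an excess. Genes of the rule and the markers given for the cells were left out of it. Tumor 6, which had the lowest share of members among its gated cells, was the highest in Adgrl2 (45.7 CPM, against a median of 17.9 over the 10 tumors), Lgr5 (131, against a median of 36.4) and Pnliprp1 (621, against a median of 191). Tumor 2 was the highest in Myl7 (68.9 CPM, against a median of 9.54) and in the secretory cell genes Pyy (459.7, against a median of 40.9) and Spink4 (182, against a median of 16.5). Members of tumor 10 were the highest in Ceacam1 (67.8 CPM, against a median of 16.1).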

How the results depend on the processing

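Where counts or calls moved, the cause was not tested. The difference in share between mice gave F = 0.349 to 9.16 when each tumor was left out, and passed without tumor 6. For members against the other gated cells, the count of higher genes was 1976 with no library block, and that of lower genes was 2189 at a mitochondrial limit of 10% and 2156 on matched cells. Matched cells with no Ptn or Mt4 UMI, an alternative added after seeing the data, gave 1971 higher and 1934 lower. Leaving out each tumor gave 3027 to 3507 higher and 2902 to 3184 lower. Nlrc5 turned positive on matched cells (0.0129, and 0.0667 with no Ptn or Mt4 UMI). Against the mucosa, 4553 genes were lower with all noncycling mucosa cells, where Adm (-0.220), Areg (-0.301), Cdkn2b (-0.653), Gbp2 (-0.0214), Ifit1 (-0.859) and Isg15 (-0.136) turned negative. Leaving out each library gave 2156 to 3139 higher and 2060 to 2744 lower. Mt1 turned negative with the mouse as a replicate block (-0.0177), in sums per mouse (-0.0461), at the limit of 10% (-0.00249), without enteroendocrine and tuft cells (-0.174) and without 7 single libraries (-0.13 to 0.29 over all). The mouse as a replicate block gave 3071 higher and 2654 lower genes. The replicate numbers of tumors and mucosa do not mark pairs, and the number as a replicate block gave 2142 and 1772. For Mt4-led against Ptn-led members, DESeq2 gave 98 higher, no filter on low counts gave 294 higher and 467 lower, and matching gave 81 lower. Leaving out each tumor gave 77 to 176 higher and 89 to 173 lower, with 98 and 90 without tumor 2, 98 higher without tumor 4, and 77 and 89 without tumor 7. Of the values of named genes under all alternatives, 2590, 2738 and 435 in the 3 comparisons kept their direction and side of the threshold, and 152, 55 and 38 kept their direction and no longer passed. The smallest mucosa sum held 544427 UMIs, which limits what could be called there.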

Other observations

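These values were picked after they were seen. Members of tumor 3 were low in genes of MHC class I, which presents peptides to T cells, and of its interferon-driven control. B2m, the shared light chain, stood at 249 CPM in them and at 841 to 2197 CPM in the members of the other 9 tumors, where tumor 5 was the lowest. H2-K1 stood at 357 CPM against 862 to 2506 CPM, and H2-D1 at 451 CPM against 920 to 2849 CPM. The peptide transporter gene Tap1 stood at 9.17 CPM against 38.7 to 101.2 CPM and the regulator gene Nlrc5 at 2.95 CPM against 10.7 to 27.6 CPM. None of these tumor 3 levels reached the range of the other tumors.

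The low levels were not particular to the members. The other gated cells of tumor 3 held B2m at 196 CPM, against 756 to 2088 CPM in those of the other tumors. In barcodes of tumor 3 with a Ptprc UMI and no epithelial gene UMI, B2m stood at 1204 CPM, against 1221 to 2094 CPM in the other tumors. In these barcodes H2-K1 (745 against 834 to 1244 CPM), H2-D1 (1623 against 1741 to 2390 CPM) and Tap1 (88.3 against 102 to 180 CPM) were also lowest in tumor 3. Nlrc5, at 19.3 CPM, was not, with 18.7 CPM in tumor 2. The low levels are thus not shown to be confined to the epithelium. With 1 such tumor, no test was made.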
